A study of Mus musculus with 8 samples.

Results

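The copying of a genome was followed here through 46 genes of DNA replication and nucleotide supply, chosen by name from the 42454 rows of the count table. They were sorted by role into 5 genes of origin licensing, 13 of the replicative helicase and its activation, 9 of primase and the polymerases, 9 of the sliding clamp, its loader and the single-strand binding protein RPA, 5 of flap processing, ligation and chromatin assembly, and 5 of deoxynucleotide supply. Polyadenylated RNA was sequenced from RAW264.7, a mouse macrophage-like line that divides continuously in culture, in 8 libraries. They carry 4 labels, with 2 libraries under each: LPS+IFN-γ and Tub B, LPS+IFN-γ, Tub B, and mock. LPS is bacterial lipopolysaccharide, given at 10 ng/ml, IFN-γ is interferon gamma, given at 20 ng/ml, and the stimulus lasted 24 h. Tub B is Tubuloside B, a phenylethanoid glycoside whose dose is not given in the sources used here, and mock cells received the solvent DMSO. All groups are one established tumour-derived cell line, and the labels do not say whether replicates were separate cultures, so p-values measure only the spread between these samples, which may be technical.

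Before each division, the origin recognition complex with Cdc6 and Cdt1 loads the MCM ring onto DNA, and in S phase Cdc45 and the GINS complex turn that ring into the working helicase. Polymerase alpha with primase starts each strand, the clamp PCNA, loaded by replication factor C, holds polymerases delta and epsilon to the template, and flap nucleases and a ligase join the lagging strand. Many of these genes are known targets of the E2F transcription factors, and activated macrophages are known to slow their cycle.

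The stimulus markers went against the labels, and every direction below is a difference between libraries so labelled. Nos2, the inducible nitric oxide synthase, had 7429 and 6156 CPM (counts scaled to library size with TMM factors) in the libraries labelled LPS+IFN-γ and Tub B and 6964 and 5762 CPM in those labelled Tub B, against 199 and 166 CPM in those labelled LPS+IFN-γ and 176 and 155 CPM in those labelled mock. Ptgs2, cyclooxygenase 2, and the cytokine Il6 had the same order, with Il6 at 1 count over the 4 libraries labelled LPS+IFN-γ or mock. The sum of 10 stimulus markers was 9782 to 12515 CPM in the 4 libraries with the Tub B label and 260.5 to 308 CPM in the other 4. Whole groups were concerned, so none could be left out, and the part of the stimulus in the differences below was not tested. Counts summed to between 4767894 and 8413834 per library. Of 10 macrophage markers 9 were detected, at a summed 9982 to 10244 CPM in LPS+IFN-γ and Tub B, 8122 to 8402 in LPS+IFN-γ, 9630 to 10191 in Tub B and 8133 to 8137 in mock, with Mertk at 0. Markers of T, B, epithelial, endothelial and fibroblast cells each summed to at most 2.79 CPM in any library. Of 5 dendritic cell markers, Flt3 was at 0 and the sum was 43.5 to 46.8, 41.6 to 42.8, 40.5 to 54.5 and 40.4 to 43.7 CPM in the groups in the same order. Of the 2 with enough counts to test, 1 was higher in Tub B than in mock (log2 fold change 5.03). It was also higher in LPS+IFN-γ and Tub B than in LPS+IFN-γ (5.97). The other was lower in the same comparisons (-0.39 and -0.34). The 6 neutrophil markers summed to 43.1 to 46.4 CPM in LPS+IFN-γ and Tub B, 6.46 to 7.24 in LPS+IFN-γ, 37.6 to 57.1 in Tub B and 7.36 to 7.54 in mock, with S100a9, Ly6g and Mpo at 0, and their part was not tested.

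Replication genes were lower in the libraries with the Tub B label, with or without the stimulus label. Of the 46 genes, 45 passed the filter on low counts. In Tub B against mock, edgeR's quasi-likelihood test (Benjamini-Hochberg adjusted p under 0.05 over all 11081 genes tested, here termed called) found 36 lower and 2 higher, while 7 were not called. Over all genes tested 51.2% were called in this comparison, 24.9% lower and 26.3% higher. In LPS+IFN-γ and Tub B against LPS+IFN-γ, 34 were lower and 2 higher and 9 were not called, against 51.2% called over all genes, 25.0% lower and 26.2% higher. The median log2 fold change of the 45 genes was -0.60 in the first comparison and -0.63 in the second, whereas that of all genes was -0.01 in both. Both libraries with the Tub B label lay below both without it for 40 of the 45 genes in the first comparison, where 38.6% of all genes did so, and for 39 in the second, where 37.8% did so. Fewer dividing cells and less of each mRNA per cell cannot be told apart in bulk RNA.

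**Figure D1:**
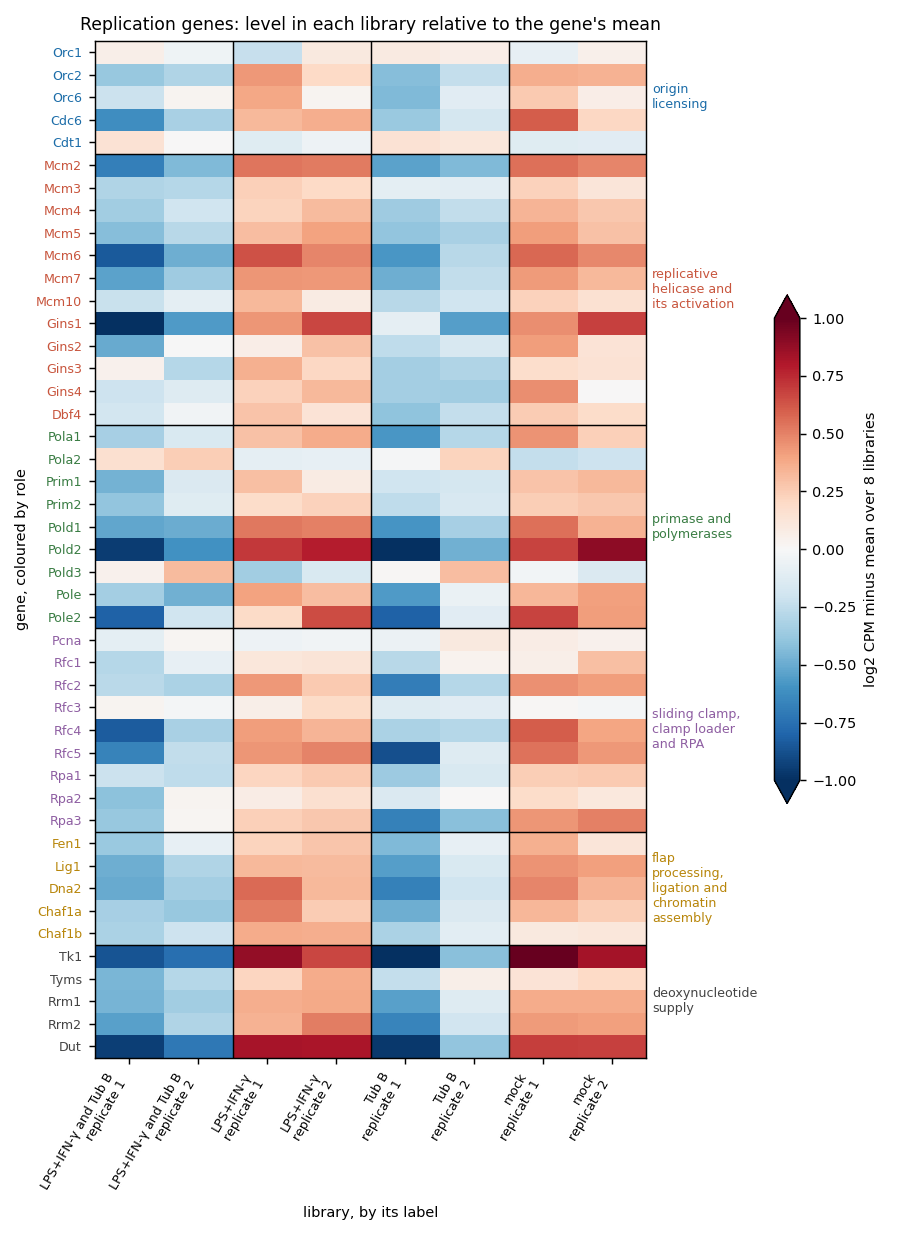
Level of each of 45 replication genes (rows, grouped and coloured by role) in each library (columns), as log2 CPM minus the gene's mean over the 8 libraries, with the colour scale ending at 1 in either direction. The 4 libraries labelled Tub B or LPS+IFN-γ and Tub B are mostly blue (below the mean) and the 4 labelled mock or LPS+IFN-γ mostly red, with Cdt1, Pola2 and Pold3 in the opposite colours and Pcna, Orc1 and Rfc3 pale.

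These comparisons share no library. Of the 45 genes, 32 were lower in both and only Pola2 was higher in both. Another 8 were called in one comparison and 4 (Orc1, Pcna, Rfc3 and Rpa2) in neither, and none was called in opposite directions. Over all 11081 genes tested, 2291 were lower in both and 2528 higher in both. Across the 45 genes, the log2 fold changes of one comparison correlated with those of the other with a Pearson r of 0.918 and a Spearman rho of 0.865, and across all 11081 genes with 0.923 and 0.891. These values describe genes, which are not independent replicates. Where 2 log2 fold changes of a gene stand together below, the first is Tub B against mock and the second LPS+IFN-γ and Tub B against LPS+IFN-γ. Together the 46 genes held 0.279% and 0.316% of all counts in LPS+IFN-γ and Tub B and 0.519% and 0.512% in LPS+IFN-γ. They held 0.274% and 0.336% in Tub B and 0.529% and 0.507% in mock. Each library with the Tub B label was below each without it.

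**Figure D2:**
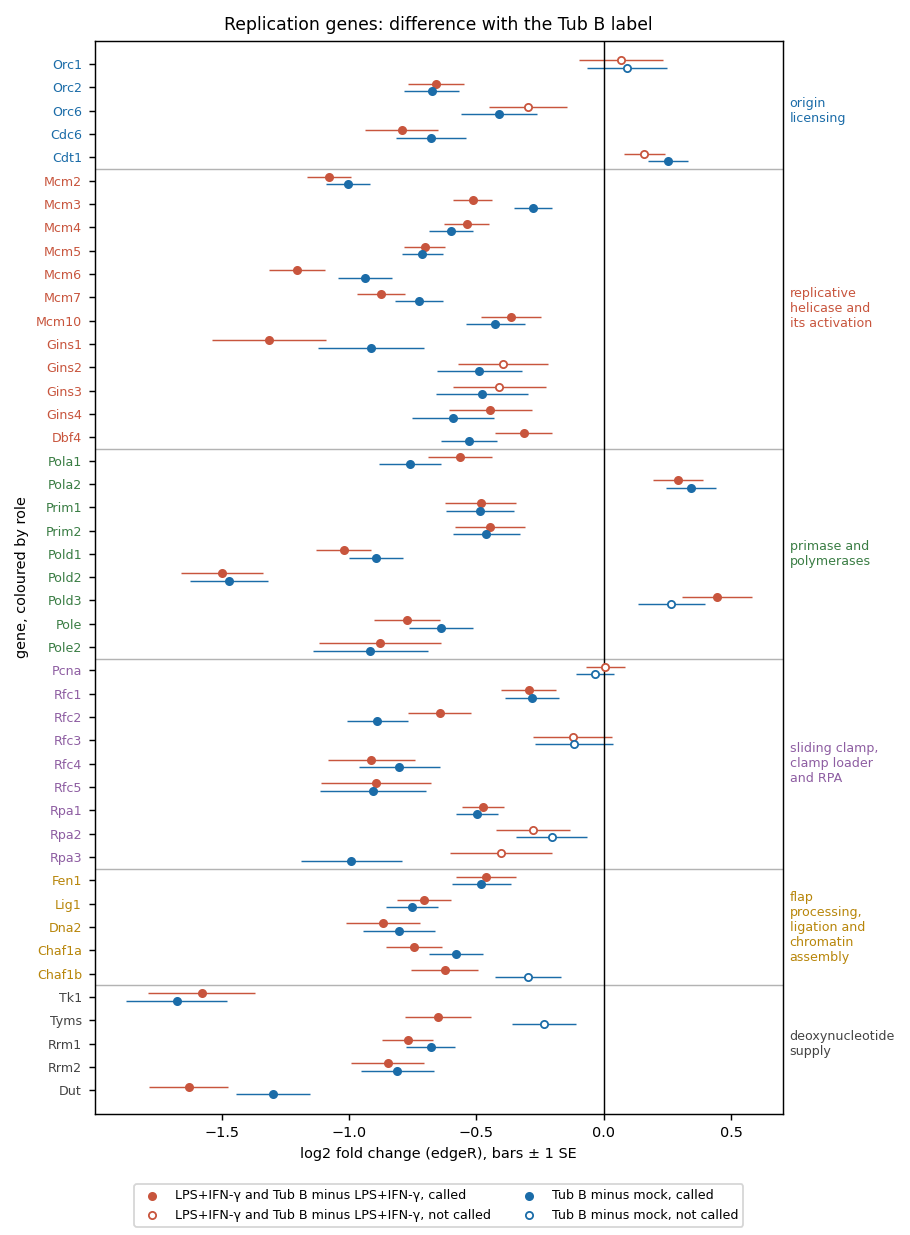
Log2 fold change with 1 SE for 45 replication genes in the comparison of LPS+IFN-γ and Tub B with LPS+IFN-γ (red) and of Tub B with mock (blue), grouped by role. Filled points passed an adjusted p under 0.05 and open points did not, and most points lie between -0.2 and -1.7, with Tk1, Pold2 and Dut farthest to the left.

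Promoters of these genes are shown because many of these genes, which mostly moved together, are known E2F targets, and the letters can be compared between genes that fell and genes that did not. The RefSeq windows used (GRCm38.p6, 250 bases before to 50 after the start, 300 in all) covered 39 of the 46 genes with 45 windows, and the 4 genes below were picked after their values and matches were seen. Capitals mark matches, on either strand, to any of 4 spellings of the E2F site, TTTCGCGC, TTTGGCGC, TTTCCCGC and TTTGCCGC. Mcm6 (minus strand, chr1:128359656-128359955) held 3 matches, the first and second overlapping, and Mcm5 (plus strand, chr8:75109259-75109558) held 2 that overlap, and both genes fell in both comparisons. Cdt1 (plus strand, chr8:122567765-122568064) held 1 and rose in one comparison, and Orc1 (plus strand, chr4:108579204-108579503) held 1 and was not called in either.
Mcm6: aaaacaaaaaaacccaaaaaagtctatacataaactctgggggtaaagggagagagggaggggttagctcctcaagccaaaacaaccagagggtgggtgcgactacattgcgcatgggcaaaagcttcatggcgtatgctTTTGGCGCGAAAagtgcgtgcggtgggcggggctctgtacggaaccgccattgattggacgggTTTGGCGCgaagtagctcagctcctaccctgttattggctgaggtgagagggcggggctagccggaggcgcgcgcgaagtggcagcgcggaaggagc
Mcm5: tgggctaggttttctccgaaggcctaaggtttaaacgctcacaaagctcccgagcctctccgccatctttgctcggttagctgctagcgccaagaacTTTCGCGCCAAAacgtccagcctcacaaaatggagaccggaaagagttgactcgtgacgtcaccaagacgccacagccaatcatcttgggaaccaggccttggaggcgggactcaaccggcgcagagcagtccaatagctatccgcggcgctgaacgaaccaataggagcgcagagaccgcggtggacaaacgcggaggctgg
Cdt1: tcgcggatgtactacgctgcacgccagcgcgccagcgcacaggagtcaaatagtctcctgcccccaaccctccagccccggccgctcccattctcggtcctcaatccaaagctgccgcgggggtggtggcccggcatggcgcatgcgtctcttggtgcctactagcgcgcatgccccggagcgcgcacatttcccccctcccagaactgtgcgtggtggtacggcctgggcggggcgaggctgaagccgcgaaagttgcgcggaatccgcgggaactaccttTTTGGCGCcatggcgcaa
Orc1: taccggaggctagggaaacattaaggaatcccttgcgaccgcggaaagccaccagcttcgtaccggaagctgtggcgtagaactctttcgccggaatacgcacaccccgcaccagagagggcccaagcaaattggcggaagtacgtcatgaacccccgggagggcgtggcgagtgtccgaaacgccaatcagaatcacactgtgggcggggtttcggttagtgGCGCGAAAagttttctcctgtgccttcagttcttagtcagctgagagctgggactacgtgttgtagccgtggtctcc
At least 1 of the 4 spellings occurred in 14 of the 45 windows (31.1%) and in 744 of all 32851 windows of this length in the mouse table (2.26%). Among genes lower in at least one comparison 10 of 37 windows (27%) held one, and among tested genes lower in neither 4 of 7 did (57.1%). The letters CCAAT, on either strand, occurred in 55.6% of the windows of these genes and 37.4% of all windows. Median GC content was 61.3% in the windows of these genes and 52.7% in all windows, and its part in these shares was not tested. A match is a run of letters and no measure of binding.

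Not all origin licensing genes were called lower. Of the 5, 3 fell and 1 rose in Tub B against mock, where 24.9% of all genes tested were called lower and 26.3% higher. In LPS+IFN-γ and Tub B against LPS+IFN-γ, 2 fell and 0 rose, against 25.0% and 26.2% of all genes. Orc2, a subunit of the origin recognition complex, had 56.7 and 64.5 CPM in Tub B against 98.1 and 96.8 CPM in mock, a log2 fold change of -0.68 ± 0.11 (SE). With the stimulus label it had 58.5 and 61.6 CPM in LPS+IFN-γ and Tub B against 103 and 87.5 CPM in LPS+IFN-γ (-0.66 ± 0.11). Cdc6, which brings the MCM ring to the origin, had 35.4 and 40.6 CPM in Tub B against 69.6 and 52.9 in mock (-0.68 ± 0.14), and 29.8 and 36.5 CPM in LPS+IFN-γ and Tub B against 57.3 and 58.8 in LPS+IFN-γ (-0.79 ± 0.14). The groups of both genes did not overlap. Cdt1, the partner of Cdc6 in loading, stood on the other side. It had 188 and 183 CPM in Tub B against 155 and 156 in mock and rose by 0.25 ± 0.08 (adjusted p = 0.00925), and it missed the threshold when mock replicate 1 was left out (adjusted p = 0.0609). It had 187 and 170.2 CPM in LPS+IFN-γ and Tub B against 156 and 164 in LPS+IFN-γ, a difference of 0.16 ± 0.08 that was not called (adjusted p = 0.102) and was -0.05 with libraries scaled by their totals alone. Cdt1 protein is known to be limited outside G1 by degradation and by geminin, which these data do not measure. Orc1, the largest subunit of the recognition complex, had 28.8 and 28.3 CPM in Tub B against 25.5 and 28.0 in mock, and 28.2 and 26.3 CPM in LPS+IFN-γ and Tub B against 23.0 and 28.9 in LPS+IFN-γ. Its differences were 0.09 ± 0.16 (95% interval -0.23 to 0.41) and 0.07 ± 0.16 (-0.27 to 0.40), neither called, and their direction flips when libraries are scaled by their totals alone. Orc6, the smallest subunit, was lower in Tub B against mock (-0.41 ± 0.15, adjusted p = 0.0224) and stood at -0.30 ± 0.15 with the stimulus label (adjusted p = 0.105).

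All helicase genes that could be tested were called lower in Tub B than in mock, 12 of 12, against 24.9% of all genes. In LPS+IFN-γ and Tub B against LPS+IFN-γ, 10 of 12 were called lower, against 25.0% of all genes. The 6 genes of the MCM ring, Mcm2 to Mcm7, are each needed in 1 copy per ring, and all 6 fell in both comparisons, but by unequal amounts. Mcm2 had 109 and 116 CPM in Tub B against 231 and 222 in mock (-1.004 ± 0.085), and 98.3 and 116 CPM in LPS+IFN-γ and Tub B against 228 and 227 in LPS+IFN-γ (-1.08 ± 0.09). Mcm6 had 98.6 and 121 CPM in Tub B against 219 and 205 in mock (-0.94 ± 0.11), and 82.4 and 105 CPM in LPS+IFN-γ and Tub B against 228 and 207 in LPS+IFN-γ (-1.21 ± 0.11). Both genes were near 1 log2 unit lower and their groups lay far apart. Mcm3 moved the least of the ring, at -0.28 ± 0.07 and -0.51 ± 0.08, and Mcm4, Mcm5 and Mcm7 lay between -0.54 and -0.88. Mcm10, an activator of the loaded ring, stood at -0.43 ± 0.11 and -0.37 ± 0.12, both called. Among the 4 GINS subunits, which bind the ring with Cdc45, Gins1 (also called Psf1) fell most. It had 14.7 and 10.7 CPM in Tub B against 21.6 and 25.1 in mock (-0.91 ± 0.21), and 7.58 and 10.6 CPM in LPS+IFN-γ and Tub B against 21.2 and 24.8 in LPS+IFN-γ (-1.31 ± 0.22). Each library with the Tub B label was below each one without it. Gins4 was lower in both comparisons, while Gins2 and Gins3 were lower in Tub B against mock (-0.49 ± 0.17 and -0.48 ± 0.18) and were not called with the stimulus label (-0.40 ± 0.18 and -0.41 ± 0.18, adjusted p = 0.0600 and 0.0599). Of the 1038 exon bases of Gins2, 11.4% are shared with Gse1 on the other strand, and counting did not use strand. Gse1 had 5377 counts over all libraries where Gins2 had 1373, and the part of this overlap was not tested. Dbf4, the activating subunit of the Cdc7 kinase that fires origins, was lower in both (-0.53 ± 0.11 and -0.31 ± 0.11). Cdc45 (chromosome 16, 18780447 to 18811972) had 1 count over the 8 libraries and was not tested. A numbered copy of it on another sequence of the assembly had 0 counts, and reads that match both places may have been left out of counting, so its level is not known.

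Within polymerase alpha, Pola1 was lower and Pola2 higher in both comparisons, and within polymerase delta, Pold1 and Pold2 were lower in both and Pold3 was called higher in LPS+IFN-γ and Tub B against LPS+IFN-γ, but neither higher call held with libraries scaled by their totals alone. Of the 9 genes, 7 fell and 1 rose in Tub B against mock, against 24.9% and 26.3% of all genes. In LPS+IFN-γ and Tub B against LPS+IFN-γ, 7 fell and 2 rose, against 25.0% and 26.2% of all genes. Polymerase delta, the main lagging-strand polymerase, had lower catalytic and small subunits. Pold2, its small accessory subunit (chromosome 11, 5872180 to 5878256), had 16.9 and 24.8 CPM in Tub B against 55.0 and 64.0 in mock (-1.47 ± 0.15, adjusted p = 3.80e-09), and 17.9 and 22.6 CPM in LPS+IFN-γ and Tub B against 56.5 and 59.6 in LPS+IFN-γ (-1.500 ± 0.162, adjusted p = 6.47e-09). Pold1, the catalytic subunit, had 52.9 and 63.2 CPM in Tub B against 117 and 101 in mock (-0.89 ± 0.11), and 55.6 and 56.5 CPM in LPS+IFN-γ and Tub B against 115 and 113 in LPS+IFN-γ (-1.02 ± 0.11). The groups were well apart for both. Pold3, which links the complex to PCNA, was instead higher with the stimulus label, at 49.1 and 59.2 CPM in LPS+IFN-γ and Tub B against 37.4 and 42.8 in LPS+IFN-γ (0.44 ± 0.14, adjusted p = 0.00772). It had 47.9 and 58.8 CPM in Tub B against 46.6 and 43.1 in mock, and this difference of 0.26 ± 0.13 was not called (adjusted p = 0.0942). The call for Pold3 was lost without LPS+IFN-γ replicate 1 (adjusted p = 0.115) and without LPS+IFN-γ and Tub B replicate 2 (0.164), and Pold3 passed in Tub B against mock without Tub B replicate 1 (0.0226).

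Polymerase alpha, which lays the first DNA on each primer, was split in the same way. Pola1, its catalytic subunit, was lower in both comparisons (-0.76 ± 0.12 and -0.57 ± 0.12), and Pola2, its regulatory subunit, was higher. Pola2 had 92.9 and 109.7 CPM in Tub B against 79.4 and 81.4 in mock (0.34 ± 0.10, adjusted p = 0.00417), and 105 and 111 CPM in LPS+IFN-γ and Tub B against 88.4 and 88.7 in LPS+IFN-γ (0.29 ± 0.10, adjusted p = 0.0150). For Pola2, both libraries with the Tub B label lay above both without it in each comparison. The same held for 37.6% and 38.1% of all genes. The first call was lost without Tub B replicate 2 (adjusted p = 0.124) and the second without LPS+IFN-γ replicate 1 (0.0784), LPS+IFN-γ replicate 2 (0.0684) or LPS+IFN-γ and Tub B replicate 2 (0.117), and with DESeq2 (0.0660). The calls of the higher genes Cdt1, Pola2 and Pold3 were also lost when libraries were scaled by their totals alone, which moved the median of all genes to -0.23 and -0.22 and left 40 genes lower and 0 higher in each comparison. The lower calls this added were those of Pcna, Rpa2, Tyms and Chaf1b in Tub B against mock, and of Pcna, Rpa2, Rpa3, Orc6, Gins2 and Gins3 in LPS+IFN-γ and Tub B against LPS+IFN-γ. The primase subunits Prim1 and Prim2 were lower by similar amounts, between -0.45 and -0.49 over both comparisons. Polymerase epsilon, the main leading-strand polymerase, was lower in both its catalytic subunit Pole (-0.64 ± 0.12 and -0.77 ± 0.13) and its accessory subunit Pole2. Pole2 was measured from few reads, at 9.66 and 15.6 CPM in Tub B against 26.9 and 22.5 in mock (-0.92 ± 0.23), and 9.64 and 14.7 CPM in LPS+IFN-γ and Tub B against 19.3 and 26.5 in LPS+IFN-γ (-0.88 ± 0.24). The second call was lost without LPS+IFN-γ replicate 2 (adjusted p = 0.0838) or LPS+IFN-γ and Tub B replicate 1 (0.0560).

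The clamp itself did not pass the test, except with libraries scaled by their totals alone, while most of its loader did. Pcna (chromosome 2, 132249286 to 132253180), which holds the polymerases to DNA and is also used in repair, had 292 and 327 CPM in Tub B against 321 and 314 in mock, and 285 and 309.8 CPM in LPS+IFN-γ and Tub B against 295 and 297 in LPS+IFN-γ. The libraries of the groups overlapped in both comparisons. The log2 differences were -0.04 ± 0.07 (95% interval -0.19 to 0.12) and 0.01 ± 0.08 (-0.15 to 0.16), and with libraries scaled by their totals alone Pcna was called lower, at -0.25 (adjusted p = 0.00719) and -0.21 (0.0273). Replication factor C opens the clamp and closes it around DNA. Of its 5 subunits, 4 fell in both comparisons, as did 2291 of all 11081 genes tested, and Rfc3 was called in neither. Rfc5 had 36.5 and 61.1 CPM in Tub B against 97.7 and 90.3 in mock (-0.91 ± 0.21), and 42.2 and 56.5 CPM in LPS+IFN-γ and Tub B against 90.9 and 94.6 in LPS+IFN-γ (-0.89 ± 0.21). Rfc4 had 22.0 and 22.5 CPM in Tub B against 41.6 and 36.1 in mock (-0.80 ± 0.16), and 15.4 and 21.8 CPM in LPS+IFN-γ and Tub B against 36.5 and 34.7 in LPS+IFN-γ (-0.91 ± 0.17). Rfc4 shares 13.2% of its exon bases with Eif4a2 on the other strand, a gene with 6427 counts over all libraries where Rfc4 had 1452. The part of this overlap was not tested. Rfc2 had 38.0 and 50.3 CPM in Tub B against 84.4 and 81.8 in mock (-0.89 ± 0.12), and 51.0 and 49.2 CPM in LPS+IFN-γ and Tub B against 83.0 and 73.4 in LPS+IFN-γ (-0.64 ± 0.12). These 3 subunits lay between -0.64 and -0.91, and Rfc1, the large subunit, at -0.28 ± 0.11 and -0.30 ± 0.11. Rfc3 stood at -0.12 ± 0.15 (95% interval -0.43 to 0.20) and -0.12 ± 0.16 (-0.44 to 0.20).

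RPA, the trimer that coats single-stranded DNA, was also uneven. Rpa1, the large subunit, fell in both comparisons (-0.50 ± 0.08 and -0.47 ± 0.08), and Rpa2 was called in neither (-0.21 ± 0.14 and -0.28 ± 0.15). Rpa3, the small subunit, had 10.3 and 12.3 CPM in Tub B against 22.3 and 23.4 in mock (-0.99 ± 0.20, adjusted p = 1.07e-04), the widest fall of this group of 9 genes in that comparison. With the stimulus label it had 12.6 and 16.7 CPM in LPS+IFN-γ and Tub B against 19.4 and 19.9 in LPS+IFN-γ, and -0.40 ± 0.20 was not called (adjusted p = 0.0947) unless LPS+IFN-γ and Tub B replicate 2 was left out (0.0488). The test of the difference between the comparisons gave 0.59 ± 0.28 for Rpa3, with an unadjusted p = 0.0470 and an adjusted p of 0.9999 in edgeR.

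Genes that finish the lagging strand and rebuild chromatin fell. In Tub B against mock 4 of 5 were called lower, where 24.9% of all genes were. In LPS+IFN-γ and Tub B against LPS+IFN-γ 5 of 5 were called lower, where 25.0% of all genes were. Dna2, a nuclease and helicase that trims long flaps, had 28.3 and 39.3 CPM in Tub B against 63.5 and 57.1 in mock (-0.80 ± 0.14), and 31.9 and 35.7 CPM in LPS+IFN-γ and Tub B against 67.2 and 56.7 in LPS+IFN-γ (-0.87 ± 0.14). Lig1, the ligase that seals Okazaki fragments, had 77.3 and 102 CPM in Tub B against 155 and 151 in mock (-0.75 ± 0.10), and 80.8 and 92.0 CPM in LPS+IFN-γ and Tub B against 142 and 141 in LPS+IFN-γ (-0.71 ± 0.10). The groups did not overlap for either gene. Fen1, the main flap nuclease, stood at -0.48 ± 0.12 and -0.46 ± 0.12, both called. Chaf1a and Chaf1b are the large and middle subunits of CAF-1, which places new histones behind the fork. Chaf1a had 69.6 and 88.6 CPM in Tub B against 123 and 116 in mock (-0.58 ± 0.11), and 77.8 and 75.0 CPM in LPS+IFN-γ and Tub B against 139 and 117 in LPS+IFN-γ (-0.75 ± 0.11). Chaf1b was lower with the stimulus label, at 32.8 and 35.4 CPM in LPS+IFN-γ and Tub B against 52.8 and 52.7 in LPS+IFN-γ (-0.63 ± 0.13). Without it, at 32.7 and 38.1 CPM in Tub B against 43.7 and 44.1 in mock, it missed the threshold (-0.30 ± 0.13, adjusted p = 0.0561), although it passed without Tub B replicate 2 (0.0409).

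Deoxynucleotide supply held the deepest fall of the 45 genes in each comparison. Of its 5 genes, 4 were called lower in Tub B against mock, where 24.9% of all genes were. In LPS+IFN-γ and Tub B against LPS+IFN-γ, 5 of 5 were called lower, against 25.0% of all genes. Tk1, the cytosolic thymidine kinase of the salvage route (chromosome 11, 117815519 to 117826087), had 13.6 and 26.3 CPM in Tub B against 71.5 and 62.6 in mock (-1.68 ± 0.20, adjusted p = 5.11e-06), and 19.3 and 20.8 CPM in LPS+IFN-γ and Tub B against 64.5 and 55.7 in LPS+IFN-γ (-1.58 ± 0.21, adjusted p = 1.64e-05). Its 2 Tub B libraries differed from each other more than those of other groups, and without Tub B replicate 2 the first value was -2.29. Of the 1747 exon bases of Tk1, 18.6% lie over Afmid on the other strand, a gene with 196 counts over all libraries where Tk1 had 2147. Dut, the dUTPase that keeps uracil out of DNA and yields the precursor of dTMP (chromosome 2, 125247248 to 125259049), had 18.4 and 27.4 CPM in Tub B against 58.3 and 57.8 in mock (-1.30 ± 0.15), and 18.8 and 22.0 CPM in LPS+IFN-γ and Tub B against 63.7 and 63.5 in LPS+IFN-γ (-1.63 ± 0.15). For both genes each library with the Tub B label lay well below each one without it. Rrm1 and Rrm2, the large and small subunits of ribonucleotide reductase, fell by similar amounts, Rrm1 by 0.68 ± 0.10 and 0.77 ± 0.10 and Rrm2 by 0.81 ± 0.14 and 0.85 ± 0.14. Tyms, the thymidylate synthase, differed in its calls. It had 42.4 and 52.0 CPM in Tub B against 55.0 and 57.4 in mock (-0.24 ± 0.12, adjusted p = 0.116), and 36.5 and 41.1 CPM in LPS+IFN-γ and Tub B against 58.1 and 64.6 in LPS+IFN-γ (-0.65 ± 0.13, adjusted p = 1.12e-04). The difference between these fold changes was -0.42 ± 0.18, with an unadjusted p = 0.0280 and an adjusted p of 0.9999.

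Levels per exon length spanned a wide range. In CPM per kilobase of exon, averaged over the 2 libraries, Pcna was highest at 236 in LPS+IFN-γ and Tub B, 235 in LPS+IFN-γ, 246 in Tub B and 252 in mock. Rrm2 followed at 97.8, 177, 98.7 and 174 in the same order of groups, and Orc1 was lowest of the 45 at 3.35, 3.19, 3.50 and 3.29. Cdt1, at 81.5, 72.9, 84.6 and 71.1, ranked 3 of 46 in both groups with the Tub B label, against 5 in LPS+IFN-γ and 6 in mock. Gins1, at 5.64, 14.3, 7.89 and 14.5, ranked 43 and 38 in the groups with the Tub B label, against 35 and 34 in LPS+IFN-γ and mock. Subunits of one complex also differed in this measure, as with Pola2 at 25.4, 20.8, 23.8 and 18.9 and Pola1 at 8.18, 12.2, 7.17 and 12.3. These ranks depend on the deposited summed exon length, which is 8141 bases for Orc1. In CPM without that division, Orc1 averaged 26.8 in mock, above Pole2 (24.7), Gins1 (23.4), Rpa3 (22.8) and Gins3 (22.7).

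**Figure D3:**
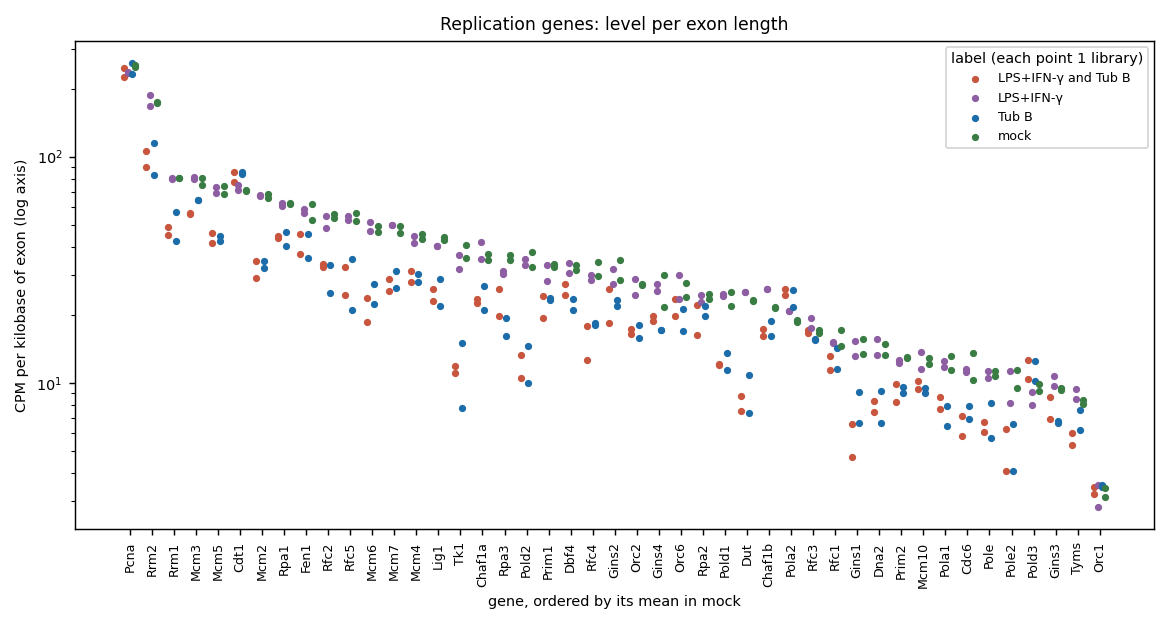
CPM per kilobase of exon (log axis) of 45 replication genes in each of the 8 libraries, with genes ordered by their mean in mock and each point 1 library. Pcna is highest in all groups and Orc1 lowest, and for Tk1, Dut, Pold2 and Gins1 the libraries with the Tub B label (red and blue) lie well below those without it (purple and green).

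No replication gene was called for the stimulus label by itself. In LPS+IFN-γ against mock, and in LPS+IFN-γ and Tub B against Tub B, edgeR called 0 of the 45 genes, and 0% of all genes were called. The 10 stimulus markers were not called in either comparison, so these values describe the label, and an effect of the stimulus itself was not tested. At an unadjusted p under 0.05 edgeR found 1 of the 45 (Chaf1b) and 247 of all genes in the first comparison and 2 (Mcm3 and Tyms) and 269 in the second. These last counts were 10 and 607 without Tub B replicate 1, 8 and 520 without Tub B replicate 2, and 4 and 479 without LPS+IFN-γ and Tub B replicate 2, while 1 gene of the 45 was found without LPS+IFN-γ and Tub B replicate 1. In LPS+IFN-γ against mock, 0 of the 45 were found without any one of its 4 libraries. No adjusted call was made in either comparison when any library was left out. DESeq2 and limma also called 0 of these genes in both. The log2 differences of the 45 genes ran between -0.22 and 0.26 in the first comparison, with a median of -0.01, and between -0.42 and 0.37 in the second, with a median of -0.06. For Mcm2, the 95% intervals were -0.16 to 0.17 in LPS+IFN-γ against mock and -0.25 to 0.12 in LPS+IFN-γ and Tub B against Tub B, and for Tk1 they were -0.54 to 0.22 and -0.56 to 0.44. The falls of Mcm2 and Tk1 with the Tub B label lie outside these intervals, and smaller changes may lie inside them. This did not hold for every gene. The fall of Mcm3 in Tub B against mock (-0.28) lies inside its interval in LPS+IFN-γ and Tub B against Tub B (-0.35 to -0.03). In the interaction, the difference between the 2 comparisons of the Tub B label, 0 of the 45 genes and 0% of all genes were called by edgeR. DESeq2 and limma called 0 of the 45 as well, and 3 of the 45 (Tyms, Mcm3 and Rpa3) and 277 of all genes had an unadjusted p under 0.05 with edgeR. For the interaction these counts were 6 and 483 without Tub B replicate 1, 5 and 466 without Tub B replicate 2, and 2 and 423 without LPS+IFN-γ and Tub B replicate 2, and 1 of the 45 was found without any one of the other 5 libraries, again with no adjusted call.

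**Figure D4:**
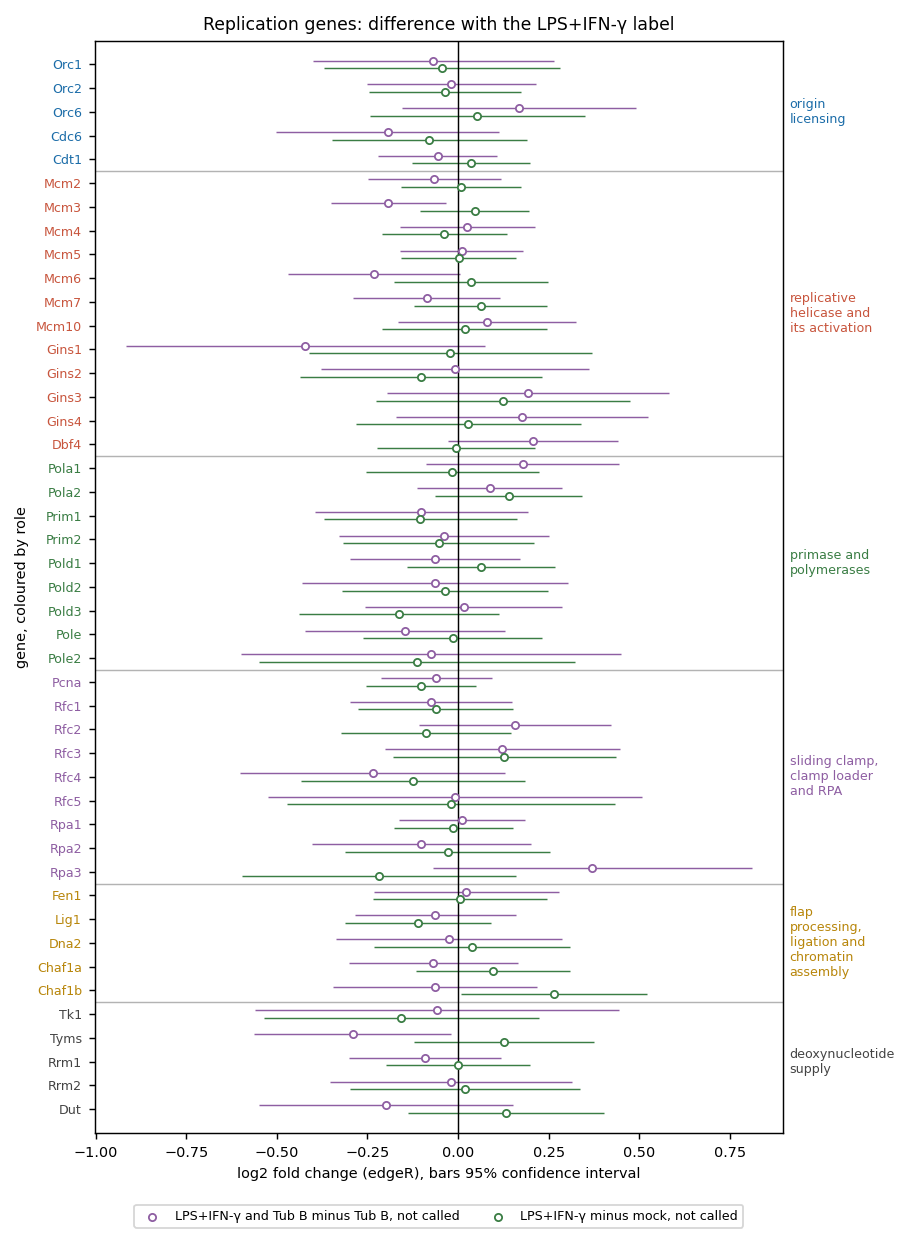
Log2 fold change with 95% confidence interval for 45 replication genes in the comparison of LPS+IFN-γ and Tub B with Tub B (purple) and of LPS+IFN-γ with mock (green), grouped by role. All points are open because none was called, and they lie between -0.42 and 0.37.

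Libraries of the same label were not equally low. Between the 2 libraries labelled LPS+IFN-γ and Tub B, replicate 2 was higher in 37 of the 45 genes (median log2 difference 0.17), and between those labelled Tub B in 40 of 45 (median 0.24). Between the 2 labelled LPS+IFN-γ it was higher in 25, and between the 2 labelled mock in 13. Over all genes this share was 50.1%, 50.2%, 51.6% and 49.1% in the same order of groups. Dut, for instance, had 18.4 and 27.4 CPM in Tub B replicates 1 and 2, and Rfc5 had 36.5 and 61.1 CPM. The sum of the 10 stimulus markers was lower in replicate 2 than in replicate 1 in all groups. In replicates 1 and 2 it was 12515 and 10419 CPM in LPS+IFN-γ and Tub B and 12241 and 9782 in Tub B. It was 308 and 276 CPM in LPS+IFN-γ and 287 and 260.5 in mock. Counts per library also differed, at 4767894 and 6443351 in LPS+IFN-γ and Tub B and 5017410 and 8413834 in Tub B. They were 5617372 and 5519706 in LPS+IFN-γ and 6648055 and 6435249 in mock. The part of the stimulus or of depth in the difference between replicates was not tested.

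Most other genes of the same processes were lower too. Of 14 further genes of licensing and origin firing, 11 were lower and 1 higher in Tub B against mock. In LPS+IFN-γ and Tub B against LPS+IFN-γ, 10 were lower and 1 higher. The shares of all genes called were 24.9% lower and 26.3% higher in the first comparison and 25.0% and 26.2% in the second. Gmnn (geminin, the inhibitor of Cdt1) had 20.0 and 26.1 CPM in Tub B against 44.2 and 44.3 in mock (-0.91 ± 0.15), and 22.3 and 23.3 CPM in LPS+IFN-γ and Tub B against 41.6 and 46.9 in LPS+IFN-γ (-0.95 ± 0.15), both called. Cdc7, the kinase that Dbf4 activates, stood at -0.76 ± 0.17 and -0.96 ± 0.17, Mtbp, which helps origins fire, at -0.99 ± 0.16 and -0.85 ± 0.16, and the helicase Recql4 at -1.27 ± 0.29 and -1.18 ± 0.30, all called. For Recql4, the first value was -2.12 without Tub B replicate 2, and the second call was lost without LPS+IFN-γ and Tub B replicate 1 (adjusted p = 0.0605). Mcm9, an MCM-like helicase of recombination repair, was the one higher gene (0.38 ± 0.14 and 0.49 ± 0.14), and in Tub B against mock it missed the threshold when mock replicate 1 (adjusted p = 0.0864), mock replicate 2 (0.0859) or Tub B replicate 2 (0.261) was left out. That call was also lost with DESeq2 (adjusted p = 0.102) and with limma on the deposited log2 values (0.0505), and both calls were lost with libraries scaled by their totals alone (log2 fold change 0.17 and 0.28).

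Of 26 tested fork proteins of 27 listed, 19 were lower and 1 higher in Tub B against mock (24.9% and 26.3% of all genes). In the comparison with the stimulus label, 18 were lower and 2 higher (25.0% and 26.2% of all genes). Chtf18, a subunit of an alternative clamp loader, stood at -0.95 ± 0.15 and -1.20 ± 0.16, and Wdhd1, which couples polymerase alpha to the helicase, at -0.93 ± 0.18 and -1.18 ± 0.19. Rnaseh2a and Rnaseh2c, subunits of the enzyme that removes ribonucleotides from DNA, stood between -0.75 and -1.02. Top1, the topoisomerase that relaxes DNA ahead of the fork and acts in transcription too, was higher (0.25 ± 0.09 and 0.25 ± 0.09). Its first call was missed with mock replicate 2 (adjusted p = 0.1001) or Tub B replicate 1 (0.0738) left out, and the second without LPS+IFN-γ replicate 2 (0.151) or LPS+IFN-γ and Tub B replicate 1 (0.292). Both calls were also lost with libraries scaled by their totals alone (log2 fold change 0.036 and 0.037), with DESeq2 (adjusted p = 0.0556 and 0.0684) and with limma on the deposited log2 values (0.0521 and 0.0610).

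Of 33 further nucleotide supply genes, 21 were lower and 2 higher in Tub B against mock (24.9% and 26.3% of all genes). In LPS+IFN-γ and Tub B against LPS+IFN-γ, 22 were lower and 2 higher (25.0% and 26.2% of all genes). Dctd, the deaminase that makes dUMP from dCMP, had 9.88 and 15.3 CPM in Tub B against 49.3 and 41.8 in mock (-1.80 ± 0.18), and 10.1 and 11.2 CPM in LPS+IFN-γ and Tub B against 47.7 and 39.9 in LPS+IFN-γ (-2.03 ± 0.19). Together with Tk1, Dut and Tyms it feeds the thymidylate pool. Gart of purine synthesis (-1.44 ± 0.11 and -1.32 ± 0.11), Ctps, the CTP synthase (-1.39 ± 0.11 and -1.37 ± 0.11), and Shmt2, the mitochondrial enzyme that supplies one-carbon units (-1.44 ± 0.14 and -1.53 ± 0.14), were lower as well. The 2 higher genes act in breakdown. Samhd1, which hydrolyses deoxynucleoside triphosphates, had 472 and 391 CPM in Tub B against 103 and 113 in mock (1.99 ± 0.09), and 479 and 413 CPM in LPS+IFN-γ and Tub B against 101 and 109.7 in LPS+IFN-γ (2.08 ± 0.10). Upp1, a uridine phosphorylase, had 133 and 103 CPM in Tub B against 1.54 and 0.865 in mock (6.58 ± 0.22), and 128 and 112 CPM in LPS+IFN-γ and Tub B against 2.63 and 1.70 in LPS+IFN-γ (5.77 ± 0.21).

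Among genes that control entry into S phase, more were called lower than higher. Of 26 tested of 27 listed, 15 were lower and 4 higher in Tub B against mock. In LPS+IFN-γ and Tub B against LPS+IFN-γ, 17 were lower and 4 higher. Over all genes tested, 24.9% and 25.0% were called lower in the 2 comparisons, and 26.3% and 26.2% higher. Cdkn1a, the inhibitor p21 that binds cyclin-dependent kinases and PCNA, had 434 and 351 CPM in Tub B against 83.2 and 122 in mock (1.93 ± 0.29), and 442 and 372 CPM in LPS+IFN-γ and Tub B against 86.3 and 128 in LPS+IFN-γ (1.93 ± 0.30). A numbered copy of Cdkn1a in the assembly held 3009 counts beside its 11663 and was also higher (1.87 ± 0.29 and 1.69 ± 0.29). Cdkn1b, the inhibitor p27, rose by 0.51 ± 0.16 and 0.85 ± 0.17, the first missing the threshold with mock replicate 2 (adjusted p = 0.0986) or Tub B replicate 2 (0.0894) left out, with DESeq2 (0.0553) and with libraries scaled by their totals alone (0.122). Rb1, the retinoblastoma protein that restrains E2F, rose by 0.78 ± 0.18 and 0.98 ± 0.18. Myc, a transcription factor that drives growth, was higher too, at 80.8 and 61.4 CPM in Tub B against 12.7 and 15.9 in mock (2.30 ± 0.16), and 77.1 and 71.4 CPM in LPS+IFN-γ and Tub B against 10.4 and 11.9 in LPS+IFN-γ (2.73 ± 0.17). Among the lower genes were Ccna2, the S-phase cyclin A (-1.18 ± 0.11 and -1.33 ± 0.12), Mybl2, a transcription factor of late cycle genes (-1.46 ± 0.15 and -1.53 ± 0.16), Fbxo5, which restrains the anaphase-promoting complex (-1.17 ± 0.22 and -1.38 ± 0.23), and the E2F partner Tfdp2 (-1.96 ± 0.28 and -1.48 ± 0.30).

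**Figure D5:**
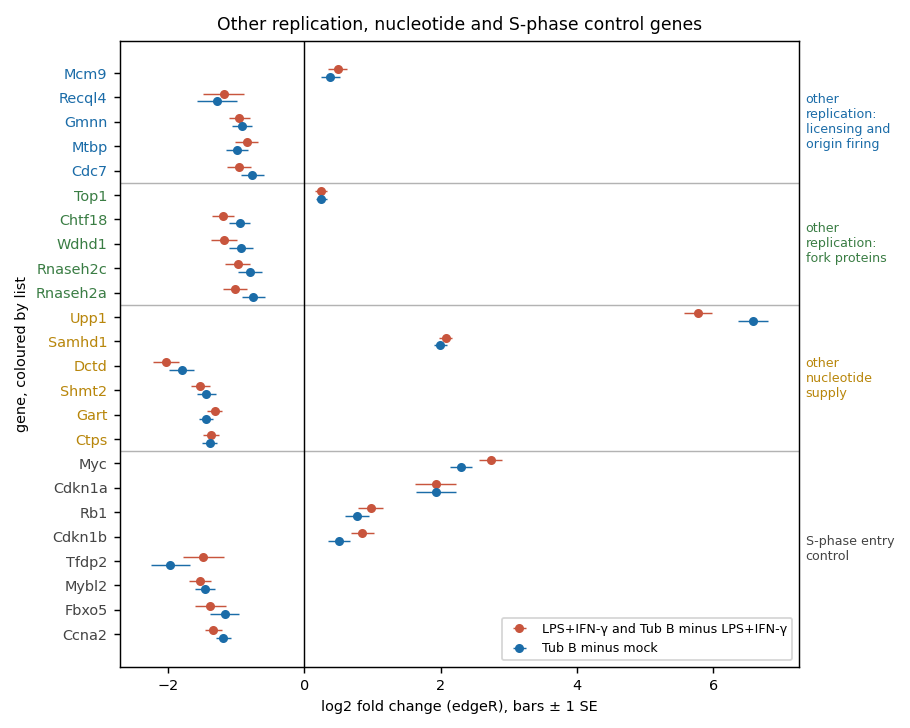
Log2 fold change with 1 SE of 24 genes of replication, nucleotide supply and S-phase control outside the 46, named by a rule of largest change in each direction, in the comparison of LPS+IFN-γ and Tub B with LPS+IFN-γ (red) and of Tub B with mock (blue). Upp1, Myc, Samhd1 and Cdkn1a lie to the right of 0, and Dctd, Tfdp2, Mybl2 and Shmt2 farthest to the left.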

How the data were processed

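Polyadenylated RNA of RAW264.7 cells was sequenced in 8 libraries (labels). The authors deposited raw counts per gene, made with STAR 2.7.0 per the submitters' processing notes and with featureCounts 2.0.1 on paired reads and GRCm38.p6 RefSeq exons per the file headers, without strand or multi-mapping options, after a non-directional kit per the labels. The authors also deposited regularised log2 values, used as an alternative. Exon lengths are the deposited ones.

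Counts were tested with edgeR 4.0.16 (R 4.3.3): TMM factors, filterByExpr (minimum count 10, total 15), robust quasi-likelihood fit of all 8 libraries by group with 4 residual degrees of freedom, Benjamini-Hochberg adjustment over 11081 genes and a threshold of 0.05. Each gene's estimate of spread also drew on that of other genes, with a median of 24.7 prior degrees of freedom. SEs are the fold change divided by the root of F. Fits were tested on simulated counts. Replicate numbers were not taken as pairs. Named genes were those with the largest called changes per role, those against their role, and uncalled extremes. Other members were named after their values were seen. Members and lists were chosen with earlier results of these data known. DESeq2 1.42.0 and limma 3.58.1 were alternatives. Intervals include the spread between libraries that edgeR estimated, and reads carry no molecular identifiers.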

Additional observations from a re-analysis of the deposited data

How the results depend on the processing

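In Tub B against mock, the 36 lower and 2 higher genes of the 45 ranged from 24 to 40 lower and from 0 to 2 higher over 11 alternative settings, and from 31 to 37 and from 1 to 3 when each library was left out. In LPS+IFN-γ and Tub B against LPS+IFN-γ, the 34 lower and 2 higher ranged from 23 to 40 and from 0 to 2, and from 28 to 36 and from 0 to 2 without each library. The number of higher genes was 0 in both comparisons with library totals in place of TMM factors and 0 in both with a minimum of 1.5-fold, and it was 1 with DESeq2 in the comparison with the stimulus label. Library totals gave 2010 higher and 4198 lower among all genes in Tub B against mock, where TMM gave 2916 and 2755, and 2000 and 4132 in the comparison with the stimulus label, where TMM gave 2903 and 2768. With library totals, Orc1 stood at -0.12 in Tub B against mock and -0.14 with the stimulus label, and Cdt1 at -0.05 and Pcna at -0.21 with the stimulus label. Leaving out each library moved Orc1 between -0.0916 (LPS+IFN-γ replicate 1) and 0.237 (LPS+IFN-γ replicate 2) and Pcna between -0.0598 (LPS+IFN-γ and Tub B replicate 2) and 0.0724 (LPS+IFN-γ and Tub B replicate 1) with the stimulus label, where Pcna was -0.0038 without LPS+IFN-γ replicate 1, and Pcna between -0.112 (Tub B replicate 2) and 0.0442 (Tub B replicate 1) in Tub B against mock. The cause was not tested. Of 94 named values, 75 kept their call and direction under all alternatives run.

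Replicate numbers were not taken as pairs, since the labels do not say what they share and each comparison has only 2 of them. Deviations from the group means correlated by -0.01 and 0.02 in the comparisons of the Tub B label, and by 0.09 and 0.15 in those of the stimulus label. Across the stimulus label, libraries of the same number were closer than replicates. The mean chi-square per gene was 1.98 and 1.93 between LPS+IFN-γ and mock libraries of the same number, against 2.60 within LPS+IFN-γ and 2.93 within mock. It was 1.95 and 2.34 between LPS+IFN-γ and Tub B and Tub B libraries of the same number, against 3.31 within LPS+IFN-γ and Tub B and 4.87 within Tub B. With the replicate number as a block, 36 genes were lower in Tub B against mock and 34 with the stimulus label, the same genes as without it, and 36 and 35 with a block within the compared groups alone, an alternative chosen after seeing the data. That block also called 4 higher and 1 lower of all genes in LPS+IFN-γ and Tub B against Tub B, where 0 were called without it, and 0 of the 45. With 2 libraries a group, a difference well under the intervals printed was not detectable at this depth.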
